A study of Mus musculus with 5 samples.

Results

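Ihh-expressing prehypertrophic chondrocytes are the growth plate cells that carry Ihh, the secreted signal Indian hedgehog, together with Col2a1, the main collagen of cartilage, before Col10a1, the collagen of hypertrophic cartilage, becomes abundant. Cells were first kept if they held 200 to 6000 genes and at most 10% of their UMIs (unique molecular identifiers, each standing for 1 counted RNA molecule) in mitochondrial genes. A kept cell was a member if it had at least 300 Col2a1 UMIs per 10000 UMIs, at least 3 Ihh UMIs and under 10 Col10a1 UMIs per 10000 UMIs. This selected 684 of 82516 kept cells, or 684 of the 46081 that reached the Col2a1 limit. Since measured Ihh, Col2a1 and Col10a1 chose the members, those 3 genes are described below without a test.

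Chondrocytes of the growth plate pass from a resting to a proliferating state, leave the cell cycle, become prehypertrophic and then enlarge as hypertrophic cells. Prehypertrophic cells are the known source of Ihh, which binds Ptch1 on neighbouring cells and acts through Smo and the Gli transcription factors. Ihh keeps nearby chondrocytes dividing and raises parathyroid hormone-related protein (Pthlh) at the far end of the cartilage, and Pthlh, through its receptor Pth1r, holds cells back from making more Ihh and from hypertrophy.

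The cells came from the femoral and tibial growth plates of 5 littermate C57BL/6J pups, 2 labelled WT and 3 labelled mutant, each sequenced as 1 BD Rhapsody library. By the series' design the mutant pups carried a conditional knock-in allele of the cation channel gene Trpv4, p.R594H, which Col2a1-Cre turns on in cells that use the Col2a1 promoter. Per the study's methods the knock-in line was made on C57BL/6J. The Col2a1-Cre line was made on a B6SJLF1 background and later crossed to C57BL/6J. The sample labels give the age as postnatal day 5 and the design text as day 3. A Xist UMI was found in 89.8% and 88.4% of cells of mutant pups 3 and 4 and in 0.109% to 0.174% of cells of the other pups, so sex differed between pups and not evenly between groups. Any 2 libraries shared 3 to 7 cell numbers.

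WT pup 1 gave 92 members and WT pup 2 gave 175, while mutant pups 3, 4 and 5 gave 218, 124 and 75. As a share of kept cells this was 0.608% and 1.06% in the WT pups and 1.14%, 0.693% and 0.543% in the mutant pups. The groups overlapped, with the highest and the lowest share both in mutant pups. Mean shares were 0.833% ± 0.317 (SD, n = 2) and 0.792% ± 0.310 (SD, n = 3), a difference that an exact permutation test over the 10 possible groupings of pups did not separate (two-sided p = 0.9, smallest possible p = 0.1). Of the Col2a1-rich cells, members were 1.03% and 2.04% in WT pups and 2.51%, 1.24% and 0.764% in mutant pups.

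The members were deeper than the typical cell. Their median UMI count was 32376 and 29434 in the WT pups and 24524, 22704 and 24284 in the mutant pups, against 9261 and 8521 and 6657, 6000 and 7016 over all kept cells of the same pups. Both WT medians lay above all 3 mutant medians (means 30905 and 23837, exact permutation p = 0.1, the smallest this design can give). Since 3 Ihh UMIs are reached more easily in a deep cell, every cell was also thinned to 5000 UMIs, which left out 1599 and 2120 shallower cells in the WT pups and 5048, 6304 and 3359 in the mutant pups. Thinned shares were 0.104% and 0.256% in WT pups and 0.284%, 0.199% and 0.105% in mutant pups (exact permutation p = 0.7). The groups again overlapped, with pups 3 and 2 highest as before. The upper limit of 6000 genes removed 23 and 25 cells that met the other limits in the WT pups and 5, 1 and 2 in the mutant pups.

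**Figure D1:**
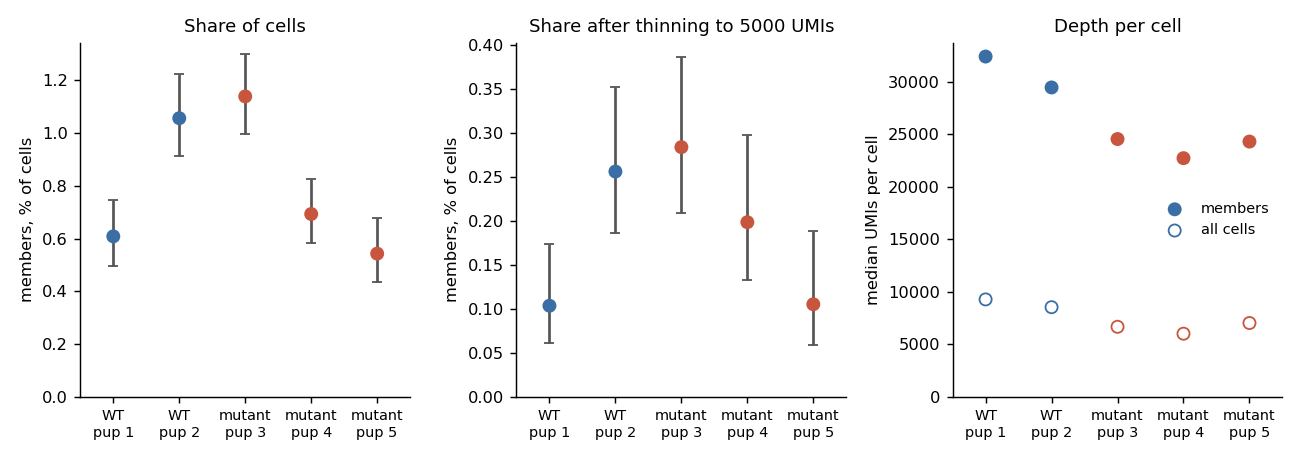
Members as a percent of kept cells (left), the same after each cell was thinned to 5000 UMIs (middle) and median UMIs per cell (right), by pup. Points are pups and bars are 95% Wilson intervals, which cover counting error only. The 2 WT pups (blue) and 3 mutant pups (red) overlap in both shares, from 0.543% to 1.14% before thinning, while both WT pups have deeper members than the mutant pups.

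Ihh itself ranged widely among the members. The median member held 5 and 7 Ihh UMIs in the WT pups and 6, 5 and 5 in the mutant pups, and the highest cell held 53 and 49 in WT pups and 61, 36 and 27 in mutant pups. Summed over the members of a pup, Ihh was 259.7 and 319.7 CPM in the WT pups and 307, 283 and 275 CPM in the mutant pups (CPM, counts per 1000000 UMIs of the summed cells). These levels come from the selection, and the groups overlapped. At the Ihh limit, 283 cells with 2 Ihh UMIs were left out and 162 cells with 3 were kept. At the Col10a1 limit, 88 members had 5 to under 10 Col10a1 UMIs per 10000 and 77 cells just outside had 10 to under 20. At the Col2a1 limit, there were 6 members between 300 and 400 Col2a1 UMIs per 10000 and 2 cells outside between 200 and 300. At this depth no Col10a1 UMI was found in 53.3% and 34.3% of the members of the WT pups and in 48.6%, 41.9% and 42.7% of those of the mutant pups.

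Ihh and Col10a1 chose the members, and Car12 is the one of the 3 label markers with a RUNX core before its start, so the 250 bases before their starts are shown from RefSeq (GRCm38.p6, the assembly also called mm10), each on the strand of its gene. Ihh is a protein-coding gene at chr1:74945315-74951672 on the minus strand, Car12 lies at chr9:66713686-66766845 and Col10a1 at chr10:34389981-34397085, both on the plus strand. Capitals mark the RUNX core TGTGGT. The TATA box, TATAAA, and the cyclic AMP response element, TGACGTCA, were searched as well, all 3 on both strands, and no match overlapped another in these windows.
Ihh, chr1:74951673-74951922 (minus strand): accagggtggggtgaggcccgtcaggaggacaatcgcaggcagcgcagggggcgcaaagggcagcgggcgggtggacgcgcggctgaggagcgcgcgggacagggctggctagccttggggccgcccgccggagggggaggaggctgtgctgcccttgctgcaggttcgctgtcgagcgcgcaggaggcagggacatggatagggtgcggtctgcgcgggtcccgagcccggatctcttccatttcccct
Car12, chr9:66713436-66713685 (plus strand): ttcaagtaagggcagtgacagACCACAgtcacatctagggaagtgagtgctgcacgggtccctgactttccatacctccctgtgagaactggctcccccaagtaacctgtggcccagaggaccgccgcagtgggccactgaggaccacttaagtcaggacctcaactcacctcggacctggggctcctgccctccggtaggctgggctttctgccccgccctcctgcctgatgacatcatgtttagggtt
Col10a1, chr10:34389731-34389980 (plus strand): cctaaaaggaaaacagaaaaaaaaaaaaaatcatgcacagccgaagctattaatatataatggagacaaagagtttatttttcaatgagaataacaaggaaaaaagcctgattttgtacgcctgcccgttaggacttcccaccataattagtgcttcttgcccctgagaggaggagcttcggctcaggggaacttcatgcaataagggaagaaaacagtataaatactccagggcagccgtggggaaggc
None of the 3 windows holds TGACGTCA. The Ihh window holds no RUNX core and no TATAAA and is 72.0% G and C. Car12 has 1 RUNX core, 229 bases before its start, while the 3 windows of Pth1r and the 1 of Cited2 hold none, and the Col10a1 window has no RUNX core, 1 TATAAA and 41.6% G and C. The RUNX core occurred in 14.0% of 32851 promoter windows of this length. Genes can have several windows and many have none in the table, so shares of genes are over genes with a window, counted where any window held the motif. The RUNX core was found for 15.9% of all 27025 such genes, for 12.5% of the 10460 among the 13668 tested in the comparison with Ihh-negative chondrocytes, for 15.0% of the 508 among 702 at least 2-fold higher in the members and for 12.1% of the 1037 among 1437 at least 2-fold lower. TGACGTCA occurred in 1.55% of windows and in 1.77%, 3.03%, 1.18% and 2.22% of the same 4 sets of genes, and TATAAA in 12.4% of windows and in 14.3%, 8.15%, 12.2% and 13.4% of those genes. Such a match is a description of the letters and does not mark a bound site.

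The label of the cells was checked with its markers Pth1r, Car12 and Cited2, which the selection did not use. Of the 684 members, 516 (75.4%) had a UMI of all 3 beside Ihh, and 13 had none of the 3. Pth1r, the receptor of Pthlh, was found in 96.3% of members, 43.6% of Ihh-negative chondrocytes and 2.69% of 558 macrophages, a cell type that should lack it, at median depths of 26050, 13513 and 8228 UMIs. Car12, a membrane carbonic anhydrase, was found in 95.2%, 40.8% and 2.51% of the same cells. Cited2, a transcriptional coregulator, was found in 76.6% of members and 37.0% of Ihh-negative chondrocytes, but also in 64.3% of macrophages, a higher share than in Ihh-negative chondrocytes at lower depth. The 8 macrophage markers summed to 2.82 to 8.42 CPM by pup, with C1qa at 0. The 6 endothelial markers summed to 4.21 to 9.98 CPM, against 4.19 to 16.8 CPM in Ihh-negative chondrocytes. In the members the 8 perichondrial markers summed to 2782 to 4745 CPM and the 9 osteoblast markers to 2848 to 4644 CPM. Both lists hold the collagen genes Col1a1 and Col1a2, so these sums are not independent. The 11 resting and articular markers summed to 1979 to 3520 CPM. In the highest pup erythroid markers reached 223 CPM, tendon 67.8, muscle 40.1, pericyte 27.4, Schwann 20.9 and granulocyte markers 3.51 CPM.

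Members were compared with 3 kinds of neighbouring chondrocyte of the same pups. Ihh-negative chondrocytes (12620 cells) met the Col2a1 and Col10a1 limits with 0 Ihh UMIs, at least 10000 UMIs and under 10 UMIs summed over 16 genes of the G2 and M phases. Cycling chondrocytes (4081 cells) met the same limits on the 3 selecting genes with at least 10 such UMIs. Col10a1-high chondrocytes (498 cells) had at least 50 Col10a1 and 100 Col2a1 UMIs per 10000, and 80.5% to 91.0% of them by pup also had an Ihh UMI. Counts were summed per pup and class and tested with edgeR's quasi-likelihood test with the pup as a block, with p-values adjusted over all genes tested (Benjamini-Hochberg, called under 0.05). Fold changes below are log2 values of members over the other class, with standard errors.

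The classes, with 2 further ones between them, were put in order as steps. Ihh rose by construction from 0 CPM in Ihh-negative cells through 63.9 CPM in 1075 cells with 1 or 2 Ihh UMIs to 289 CPM in members. It was higher still, 417 CPM, in 183 cells with at least 3 Ihh UMIs and 10 to under 50 Col10a1 UMIs per 10000. In Col10a1-high cells it was 504 CPM. The Ihh limit did not set the rises after the members, since the former class shares that limit and the latter has none. Pth1r followed the same order without being part of the rule, at 78.4, 288, 607, 1124 and 1265 CPM over the 5 steps. Smpd3, a neutral sphingomyelinase needed for bone and cartilage mineralization, was highest in the members and the step after them (234, 1133, 2125, 2109 and 1439 CPM). Gli1, a transcriptional target of hedgehog signalling, ran the other way (36.9, 28.7, 18.2, 5.53 and 4.56 CPM). Ptch1, the receptor and also a target, was highest in cells with 1 or 2 Ihh UMIs and lowest in Col10a1-high cells (189, 229, 157, 69.6 and 45.0 CPM). Runx3, a RUNX family transcription factor, was highest in the members and the step before them (84.7, 151, 152, 111 and 82.5 CPM).

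**Figure D2:**
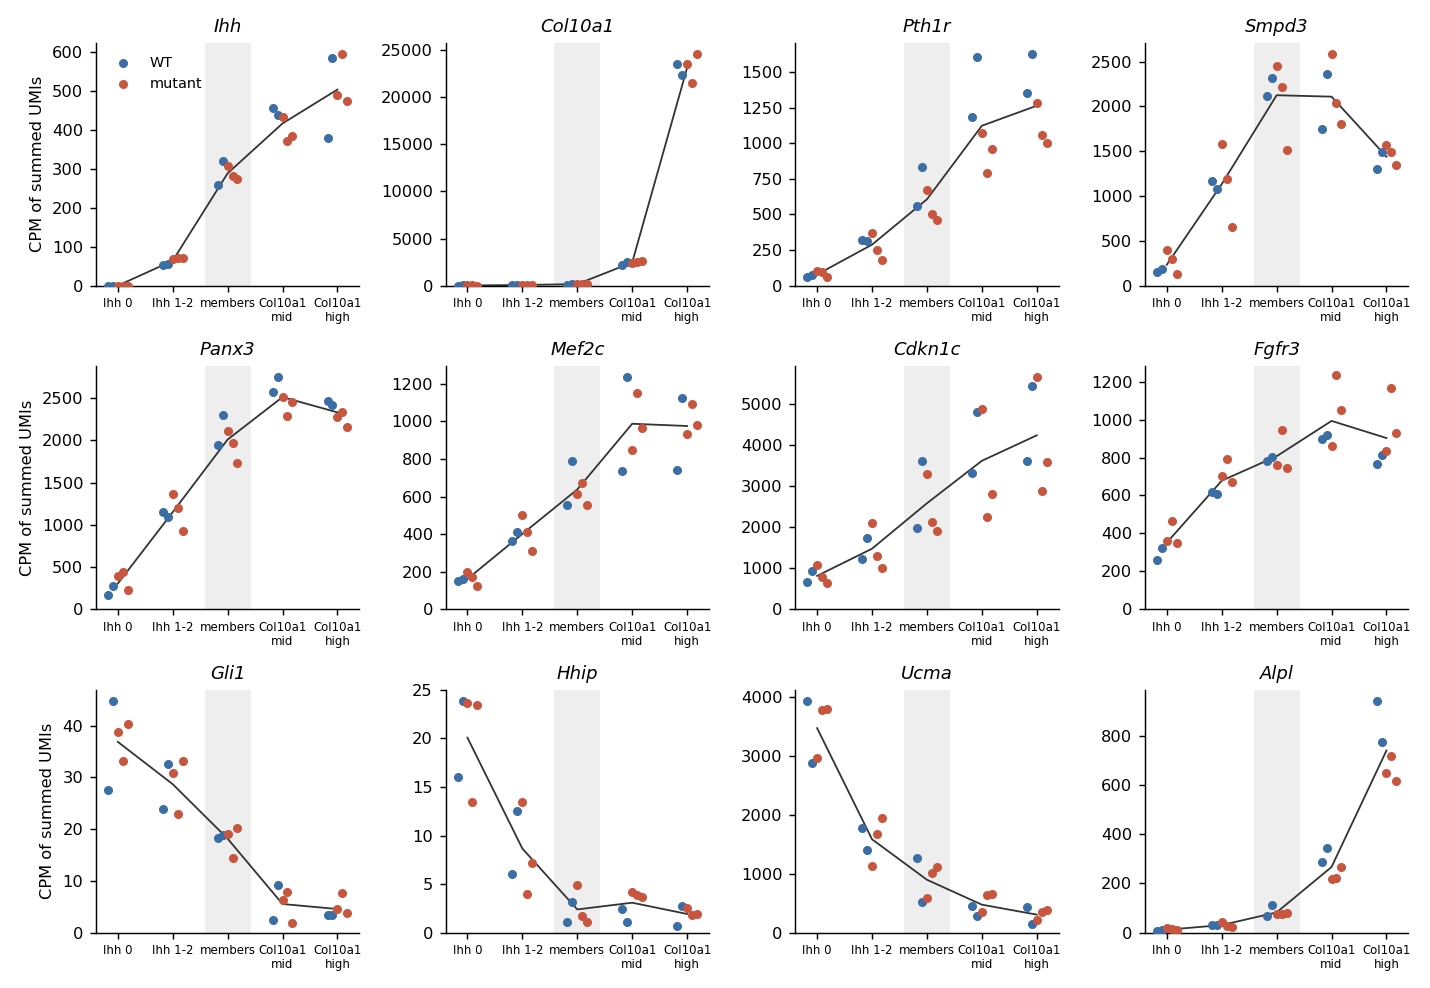
Levels of 12 genes (CPM of summed UMIs, axes from 0) in 5 steps: cells with 0 Ihh UMIs, with 1 or 2, the members (grey band), cells with Ihh and 10 to under 50 Col10a1 UMIs per 10000, and Col10a1-high cells. Points are the 2 WT (blue) and 3 mutant (red) pups and lines join the means. Ihh and Col10a1 made the steps. Pth1r, Cdkn1c and Alpl climb through the members to the Col10a1-high cells, Smpd3 is highest in the members and the next step, and Gli1, Hhip and Ucma fall.

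Against Ihh-negative chondrocytes, 13668 genes were tested, of which 55.7% were called, 27.7% were higher and 28.0% lower in the members, 5.14% at least 2-fold higher and 10.5% at least 2-fold lower. The CPM of the 2 classes did not overlap over the 5 pups in 33.0% of these genes. The members were about 2 times as deep per cell as these Ihh-negative cells, so all changes were also fitted against the 1896 Ihh-negative cells with at least 20000 UMIs (median 22946 to 24384 UMIs by pup), called deep Ihh-negative cells here. That choice was made after seeing the data. It tested 11387 genes and called 1807 higher (15.9%) and 1717 lower (15.1%). Of the 7611 calls against all Ihh-negative cells, 6756 were tested there and 3175 were made again in the same direction. A list's calls are said to hold where they were. Such a count is to be read beside 3175 of 7611 over all genes, since a list's calls include those not tested against deep cells. A list near that share does not stand apart from other genes. The Ihh-negative class also held more fibroblast RNA. Its 8 perichondrial markers summed to 24422 to 35373 CPM by pup, against 2782 to 4745 CPM in members. Its 11 resting and articular markers summed to 8234 to 11044.5 CPM, against 1979 to 3520 CPM in members. The part of such RNA in the falls below was not tested.

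The largest rises among well-expressed genes were those of 2 sphingomyelin enzymes, of Pth1r, of the BMP antagonist Chrdl1 and of Alpl. Smpd3 stood at 2122 and 2320 CPM in the WT pups and 2455, 2221 and 1509 CPM in the mutant pups, and in Ihh-negative cells at 156 and 187 CPM (WT) and 395, 301 and 129 CPM (mutant). Members exceeded Ihh-negative cells of the same pup in all 5 pups, and the ranges did not overlap (log2 fold change 3.32 ± 0.24 (SE), adjusted p = 0.00038, and 2.09 ± 0.30 against deep Ihh-negative cells). Sgms2, a sphingomyelin synthase of the plasma membrane, averaged 1192 ± 255 CPM (SD, n = 5) in members and 131 ± 43.0 CPM in Ihh-negative cells (3.25 ± 0.18 (SE), adjusted p = 7.3e-05, and 2.48 ± 0.34 against deep cells). Pth1r was 562 and 834 CPM in the WT pups and 669, 505 and 464 CPM in the mutant pups, against 62.3 and 77.3 CPM (WT) and 101, 93.4 and 58.0 CPM (mutant) in Ihh-negative cells (2.99 ± 0.19 (SE), adjusted p = 0.000134, and 1.89 ± 0.23 against deep cells). Every pup's members were above the highest Ihh-negative value. Chrdl1 changed by 2.94 ± 0.18 and 1.63 ± 0.24 in the same 2 fits and Alpl, the tissue-nonspecific alkaline phosphatase, by 2.92 ± 0.28 and 2.18 ± 0.25. The largest falls were those of the matrix genes Tnn (-3.63 ± 0.25) and Cilp2 (-3.61 ± 0.16), the secreted Wnt inhibitors Sfrp2 (-3.57 ± 0.15) and Wif1 (-3.38 ± 0.26) and the hedgehog co-receptor Gas1 (-3.41 ± 0.25). Against deep cells these 5 falls were smaller but still called, at -2.02 ± 0.34 for Tnn, -2.16 ± 0.19 for Cilp2, -1.94 ± 0.14 for Sfrp2, -1.55 ± 0.28 for Wif1 and -1.78 ± 0.26 for Gas1.

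The other 2 label markers differed less from deep Ihh-negative cells than from all of them. Car12 was 593 and 373 CPM in the WT pups and 395, 573 and 416 CPM in the mutant pups in members and 103 and 139 CPM (WT) and 157, 224 and 149 CPM (mutant) in Ihh-negative cells. It was higher in members in all 5 pups (1.65 ± 0.22 (SE), adjusted p = 0.0032), but the difference from deep Ihh-negative cells was 0.43 ± 0.19 (SE), adjusted p = 0.167. Cited2 was 346 and 423 CPM in the WT pups and 303, 386 and 508 CPM in the mutant pups, against 162 and 195 CPM (WT) and 142, 246 and 283 CPM (mutant). Its change of 0.99 ± 0.072 (SE), adjusted p = 7.45e-09 was not seen against deep Ihh-negative cells (-0.013 ± 0.058 (SE), adjusted p = 0.89), and the part of depth in its change was not tested.

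Most hedgehog genes were lower in the members. Of 17 tested apart from Ihh, 3 were higher and 13 lower in the members (median -0.70, against -0.016 over all genes), and 12 of the 16 calls were also made against deep cells. Perichondrial markers were lower against deep cells too, in 7 of 7 tested (median -1.46). The part of the fibroblast RNA of the Ihh-negative class in the hedgehog falls was not tested. Disp1, which releases lipid-modified hedgehog from the sending cell, was 32.0 and 35.4 CPM in the WT pups and 30.1, 35.8 and 32.1 CPM in the mutant pups, against 13.5 and 13.2 CPM (WT) and 15.4, 14.4 and 9.99 CPM (mutant) in Ihh-negative cells. All members' values lay above all Ihh-negative values (1.33 ± 0.10 (SE), adjusted p = 4.49e-10, and 1.31 ± 0.10 against deep cells). Scube1, of a family that carries the released protein, was 53.1 and 44.8 CPM in the WT pups and 41.7, 35.5 and 55.8 CPM in the mutant pups, against a mean of 12.6 ± 1.34 CPM (SD, n = 5) in Ihh-negative cells (1.90 ± 0.12 (SE), adjusted p = 1.35e-09, and 1.36 ± 0.13). The groups did not overlap. Other genes of the sending cell fell, namely Hhat, which attaches a lipid to hedgehog (-0.70 ± 0.12), Scube2 (-0.76 ± 0.11) and Scube3 (-0.63 ± 0.099), the last with the other sign and no call against deep cells (0.11 ± 0.086 (SE), adjusted p = 0.357). On the receiving side, Gli1 was 18.3 and 18.8 CPM in the WT pups and 19.1, 14.4 and 20.3 CPM in the mutant pups in members and 27.5 and 44.8 CPM (WT) and 38.7, 33.1 and 40.3 CPM (mutant) in Ihh-negative cells, lower in members in every pup and called in both fits (-1.09 ± 0.096 (SE), adjusted p = 1.93e-07 against deep cells). Gli2, an effector of the pathway, fell from 23.1 to 4.16 CPM (-2.43 ± 0.15, and -1.70 ± 0.18). Hhip, a decoy receptor, fell from 20.1 to 2.39 CPM (-2.84 ± 0.18, and -2.36 ± 0.26). The co-receptors Gas1, Boc and Cdon changed by -3.41, -2.18 and -0.98, and by -1.78 ± 0.26, -0.84 ± 0.23 and -0.32 ± 0.08 against deep cells. Ptch1 was 162 and 146 CPM in the WT pups and 145, 156 and 178 CPM in the mutant pups in members and 141 and 216 CPM (WT) and 175, 189 and 226 CPM (mutant) in Ihh-negative cells, ranges that overlap. Its fall of -0.23 ± 0.077 (SE), adjusted p = 0.021 was larger against deep cells (-0.84 ± 0.079) and turned into a rise of 0.28 when Ihh-negative cells of any depth were used. Kif7, a cilium motor protein of the pathway, was called higher (0.91 ± 0.13) but not against deep cells (0.24 ± 0.12 (SE), adjusted p = 0.143).

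In the PTHrP pathway, Pthlh itself was near 0 in the members, at 0.351 and 0 CPM in the WT pups and 0.374, 0.351 and 0.564 CPM in the mutant pups, against 7.91 and 6.10 CPM (WT) and 3.64, 6.01 and 9.19 CPM (mutant) in Ihh-negative cells. The values did not overlap, but each member value rests on few UMIs, so no fold is given, and Pthlh was too low to be tested against deep cells. Of 20 genes tested, 2 were higher and 11 lower (median -0.23), and 7 of 13 calls were made again against deep cells. Downstream of the receptor, Hdac4, a histone deacetylase that restrains Mef2c and Runx2, was 11.2 and 18.8 CPM in the WT pups and 12.4, 16.5 and 25.4 CPM in the mutant pups in members and 29.7 to 41.8 CPM in Ihh-negative cells (-1.04 ± 0.10 (SE), adjusted p = 2.5e-08, and -0.84 ± 0.11). Zfp521, a zinc finger protein that restrains Runx2, fell (-0.92 ± 0.078, and -0.39 ± 0.093). Sik3, a salt-inducible kinase that acts on class II histone deacetylases, rose (0.37 ± 0.069, and 0.33 ± 0.076). Gnas, the stimulatory G protein coupled to Pth1r, differed by -0.12 ± 0.049 (SE), adjusted p = 0.0476, and by 0.028 ± 0.037 (SE), adjusted p = 0.61 against deep cells.

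Of 26 transcription factors of hypertrophy tested, 14 were higher and 8 lower (median 0.46), and 17 of 22 calls held against deep cells. Mef2c, a direct driver of hypertrophy, was 552 and 791 CPM in the WT pups and 614, 673 and 557 CPM in the mutant pups, against 147 and 163 CPM (WT) and 199, 174 and 121 CPM (mutant) in Ihh-negative cells. The groups did not overlap (2.02 ± 0.094 (SE), adjusted p = 2.43e-08, and 1.30 ± 0.17 against deep cells). Runx2, which drives both hypertrophy and bone formation, was 283 and 409 CPM in the WT pups and 330.2, 369 and 336 CPM in the mutant pups, against 117 to 187 CPM (1.11 ± 0.059 (SE), adjusted p = 1.85e-12, and 0.47 ± 0.065). Sp7, a bone factor downstream of Runx2, was 170.5 and 192 CPM in the WT pups and 162, 173 and 172 CPM in the mutant pups, against 24.9 to 60.3 CPM (2.14 ± 0.22 (SE), adjusted p = 0.00108, and 0.97 ± 0.13). Foxa2, a forkhead factor of hypertrophy, changed by 2.03 ± 0.16 and 1.38 ± 0.12, and the homeobox factors Dlx3, Dlx5 and Dlx6 by 1.81, 1.59 and 1.25, each also called against deep cells. Foxo3 and Maf fell (-1.01 and -1.44). Among 13 general chondrocyte factors, 3 were higher and 10 lower, with 7 of 13 calls held against deep cells. Sox9, the master factor of cartilage, was 2232 and 2510 CPM in the WT pups and 2202, 2668 and 3248 CPM in the mutant pups and 1788 and 1815 CPM (WT) and 1770, 2148 and 2494 CPM (mutant) in Ihh-negative cells, higher in members of every pup (0.39 ± 0.051 (SE), adjusted p = 1.55e-06) but not called against deep cells (0.1 ± 0.047 (SE), adjusted p = 0.119). Nfib fell most (-2.74 ± 0.081, and -1.19 ± 0.11).

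Receptors of fibroblast growth factor changed in opposite directions. Fgfr1 was 22.5 and 32.9 CPM in the WT pups and 31.1, 16.9 and 34.9 CPM in the mutant pups, against 171 and 189 CPM (WT) and 173, 125 and 174 CPM (mutant) in Ihh-negative cells, while Fgfr3, which slows chondrocyte growth, was 780.3 and 802 CPM in the WT pups and 761, 944 and 747 CPM in the mutant pups, against 261 and 323 CPM (WT) and 358, 466 and 347 CPM (mutant). Neither pair of ranges overlapped (Fgfr1 -2.57 ± 0.085 (SE), adjusted p = 3.18e-15, and Fgfr3 1.25 ± 0.073 (SE), adjusted p = 1.56e-09). Both were called in the same direction against deep cells (-1.06 ± 0.13 and 0.42 ± 0.071), as was Fgfr2 (-1.31 and -0.58 ± 0.072). Of the 19 genes tested of the FGF and natriuretic peptide pathways, 2 were higher and 15 lower (median -1.28), and 9 of 17 calls held against deep cells. The feedback genes Spry1, Dusp6 and Etv5 fell (-1.96, -1.28 and -2.02), as did Spry2 and Spry4 (-1.09 and -1.76). Against deep cells the values of Spry1, Dusp6 and Etv5 were -1.43 ± 0.32, -0.41 ± 0.11 and -0.53 ± 0.19, and Spry2 (-0.17 ± 0.12 (SE), adjusted p = 0.283) and Spry4 (-0.64 ± 0.25 (SE), adjusted p = 0.0627) were not called. The second gene that was higher was Prkg2, a cGMP-dependent kinase through which natriuretic peptides act on growth plates, at 333 and 316 CPM in the WT pups and 324, 304 and 339 CPM in the mutant pups, against 64.5 to 114 CPM (1.97 ± 0.17 (SE), adjusted p = 0.000394, and 0.92 ± 0.13).

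In the Wnt pathway most ligands were higher and most secreted inhibitors lower. Of 6 ligands tested, 5 were called higher, Wnt4 by 2.60 ± 0.27, Wnt5a by 2.14 ± 0.30, Wnt5b by 1.75 ± 0.081, Wnt10b by 2.42 ± 0.28 and Wnt11 by 2.10 ± 0.14, and these 5 were also called against deep cells, while Wnt9a fell (-1.73 ± 0.44). Wnt4 stood at 95.3 and 141 CPM in the WT pups and 118, 78.3 and 96.9 CPM in the mutant pups, against 10.2 to 25.5 CPM in Ihh-negative cells, with no overlap. The inhibitors Wif1, Dkk3, Sfrp1 and Sfrp5 fell (-3.38, -2.85, -1.76 and -1.90). Of the 2 nuclear partners of beta-catenin listed, Tcf7 rose (1.38 ± 0.18) and Lef1 fell (-2.26 ± 0.18). The list's count was 8 higher and 12 lower of 22, with 15 of 20 calls held against deep cells.

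BMP genes gave 8 higher and 10 lower of 27, of which 12 of 18 calls held against deep cells. Antagonists went both ways, since Nog, noggin, rose with Chrdl1 (1.80 ± 0.079 (SE), adjusted p = 1.02e-12, and 0.85 ± 0.089 against deep cells) while Grem1, gremlin, and Chrd, chordin, fell (-3.36 ± 0.50 and -2.38 ± 0.20). The signal transducers Smad1 and Smad9 rose (0.71 and 1.10) with the inhibitory Smad7 (0.95), each also called against deep cells. TGF-beta genes were mostly lower, 11 of 17 against 3 higher, with 9 of 14 calls held. These included Ltbp1, Ltbp3 and Ltbp4, which hold the latent ligand in the matrix (-2.65, -1.72 and -2.69). In the growth hormone and IGF system 11 of 17 genes were lower and 3 higher, with 11 of 14 calls held. Igfbp5 and Igfbp3, IGF binding proteins, fell (-3.24 and -3.24), Ghr, the growth hormone receptor, fell (-1.12, and -0.36 ± 0.12 against deep cells), and Irs1, an adaptor of the IGF receptor, rose (0.94, and 0.36 ± 0.053).

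Of 35 matrix genes tested, 20 were higher and 11 lower, 17 of 31 calls holding against deep cells. Hapln1, the link protein of aggrecan, was 10566 and 11690 CPM in the WT pups and 10638, 10386 and 10173 CPM in the mutant pups, against 4654 and 4814 CPM (WT) and 4797, 6130 and 5425 CPM (mutant) in Ihh-negative cells, without overlap (1.08 ± 0.078 (SE), adjusted p = 1.47e-07, and 0.46 ± 0.064). Comp and Snorc, further cartilage matrix genes, rose by 1.08 and 0.99. Ucma, a marker of the upper and resting zones, was 1269 and 513 CPM in the WT pups and 579, 1013 and 1107 CPM in the mutant pups, against 3931 and 2872 CPM (WT) and 2954, 3781 and 3800 CPM (mutant), lower in every pup, not overlapping and called in both fits (-0.86 ± 0.064 (SE), adjusted p = 6.76e-07 against deep cells). Of the small proteoglycans, Dcn, Bgn and Fmod fell (-2.38, -1.29 and -1.02) and Lum, Epyc and Prelp rose (0.15, 0.42 and 0.59). Against deep cells Lum was still called higher (0.31 ± 0.05) and Epyc and Prelp were not called (0.088 ± 0.046 and -0.027 ± 0.052). The resting and articular markers were lower in 11 of 11, with 6 of 11 calls held against deep cells. Of the 10 tested there, Mgp (0.038 ± 0.051 (SE), adjusted p = 0.612), Erg (0.23 ± 0.10 (SE), adjusted p = 0.0933) and Gdf5 (0.018 ± 0.23 (SE), adjusted p = 0.964) lay on the other side of 0 without a call. The Ihh-negative class also held cells with fibroblast RNA, its 8 perichondrial markers summing to 24422 to 35373 CPM by pup against 2782 to 4745 CPM in the members, and its part in these falls was not tested.

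Panx3, a channel protein of prehypertrophic cells and osteoblasts, was 1944 and 2301 CPM in the WT pups and 2113, 1965 and 1731 CPM in the mutant pups, against 169 and 279 CPM (WT) and 398, 435 and 229 CPM (mutant) in Ihh-negative cells, without overlap (2.84 ± 0.25 (SE), adjusted p = 0.000816, and 1.34 ± 0.23). In the list of hypertrophic and mineralization genes, 7 were higher, among them Alpl and Smpd3, and 5 lower of 15 tested, with 6 of 12 calls held against deep cells. Spp1, osteopontin, averaged 198 ± 89.4 CPM (SD, n = 5) against 74.6 ± 12.5 CPM (1.33 ± 0.26 (SE), adjusted p = 0.0118) and was not called against deep cells (1.33 ± 0.54 (SE), adjusted p = 0.149). Vegfa, which draws vessels to hypertrophic cartilage, was not called in either fit (-0.11 ± 0.069 and -0.06 ± 0.064).

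Cell cycle genes changed in both directions. Cdkn1c, the inhibitor p57, was 1985 and 3617 CPM in the WT pups and 3288, 2132 and 1899 CPM in the mutant pups, against 673 and 923 CPM (WT) and 1065, 772 and 626 CPM (mutant) in Ihh-negative cells, without overlap (1.67 ± 0.073 (SE), adjusted p = 9.48e-11, and 1.47 ± 0.15). Rb1, the retinoblastoma protein, rose (1.78 ± 0.12, and 1.46 ± 0.14), while the cyclins Ccnd2 and Ccnd3 fell (-1.44 and -0.91), and 10 of 12 calls among 14 exit genes held against deep cells. In S phase genes 7 of 15 were lower and 3 higher, the latter Rrm2, Tyms and Slbp, and 9 of 10 calls held against deep cells, that of Slbp not (0.22 ± 0.097 (SE), adjusted p = 0.0898). For this comparison the Ihh-negative class was built without cells rich in G2 and M genes and the members were not. Members with at least 10 UMIs of the G2 and M genes made up 20.7% and 6.29% of members in the WT pups and 10.1%, 16.1% and 10.7% in the mutant pups.

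Trpv4, the gene altered in the mutant pups, was 282 and 175 CPM in the WT pups and 185, 279.9 and 278 CPM in the mutant pups in members and 215 and 147 CPM (WT) and 147, 228 and 224 CPM (mutant) in Ihh-negative cells. The ranges overlapped, yet members were above Ihh-negative cells within each pup (0.34 ± 0.052 (SE), adjusted p = 9.45e-06), a difference not called against deep cells (0.11 ± 0.048 (SE), adjusted p = 0.0833). Of 25 genes of calcium entry and calcineurin signalling, 10 were higher and 11 lower, with 10 of 21 calls held. Stim1, the calcium sensor of the endoplasmic reticulum, rose in both fits (0.84 ± 0.12 and 0.79 ± 0.10) with its channel Orai1 (0.39 ± 0.12 and 0.68 ± 0.15) and the calcium pump Atp2b1 (0.93 ± 0.061 and 0.65 ± 0.067), and Rcan1, an inhibitor and target of calcineurin, fell (-1.27 ± 0.091 and -0.40 ± 0.11). In the secretory pathway 10 of 20 genes were higher and 4 lower, 8 of 14 calls holding. Among glycolysis and hypoxia genes 10 of 18 were higher and 3 lower, but 3 of 13 calls held, and against deep cells the list had 2 higher and 4 lower of 18. Ldha, lactate dehydrogenase, went from 0.75 to 0.069 ± 0.052 (SE), adjusted p = 0.337, and the aldolase Aldoa from 0.26 to -0.19 ± 0.044 (SE), adjusted p = 0.00262. Dissociation stress genes gave 4 higher and 7 lower of 18. Acta1, skeletal muscle actin, was higher (3.10 ± 0.19), at 3.87 and 22.5 CPM in the WT pups and 39.9, 2.46 and 11.3 CPM in the mutant pups. Of the 6 muscle markers listed, Myod1, Myog and Pax7 were at 0, while Myf5 and Ckm, like Acta1, were found in members. The 6 markers summed to 2.46 to 40.1 CPM by pup.

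**Figure D3:**
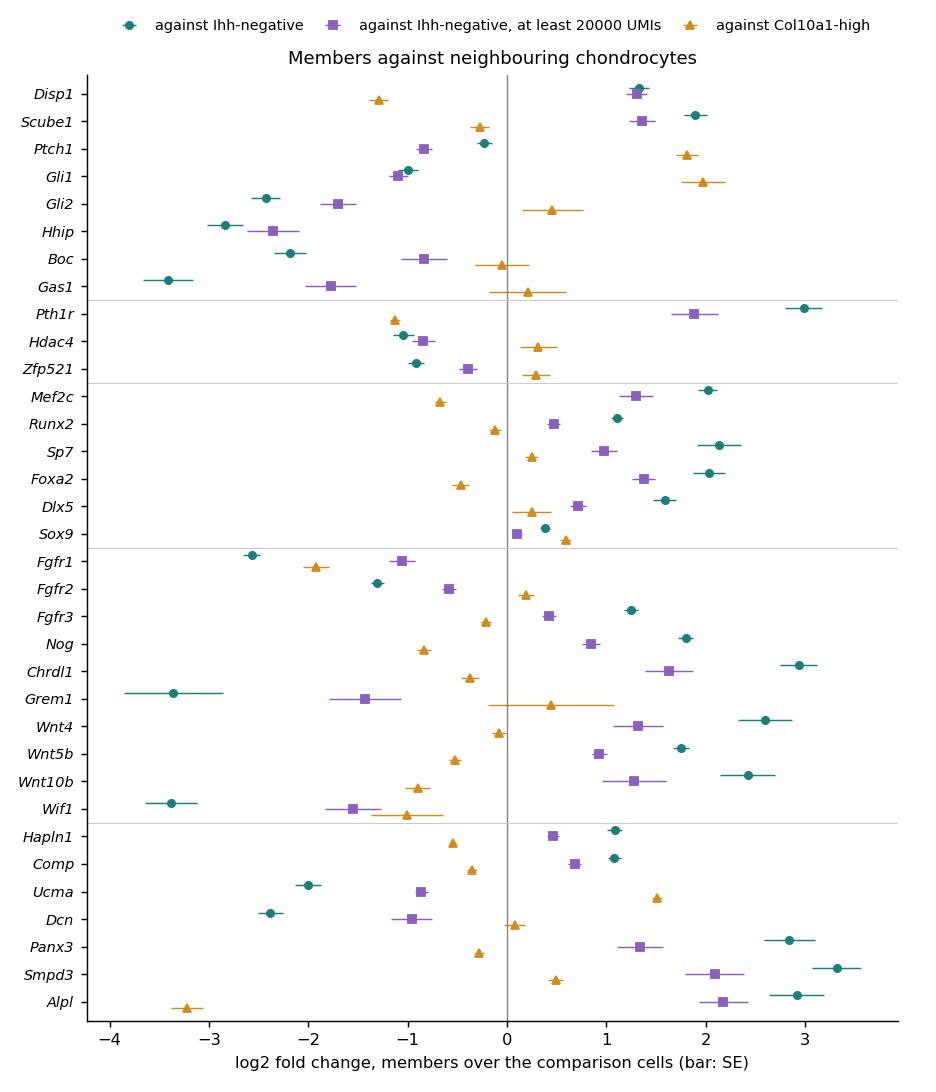
Log2 fold changes of members over Ihh-negative cells (circles), over Ihh-negative cells of at least 20000 UMIs (squares) and over Col10a1-high cells (triangles), with SE, for 34 genes grouped by pathway, lines separating the groups. Most genes keep their side of 0 between circles and squares at a smaller size, and Pth1r, Mef2c, Disp1 and Alpl lie to the right of 0 against Ihh-negative cells and to the left against Col10a1-high cells.

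Against Col10a1-high chondrocytes, 10162 genes were tested and 20.1% were higher and 21.6% lower in the members, 3.11% at least 2-fold higher and 5.01% at least 2-fold lower. The CPM of the 2 classes did not overlap in 22.2% of these genes. Depth per cell was close in the 2 classes, with pup medians of 22704 to 32376 UMIs in members and 22373 to 33830 UMIs in Col10a1-high cells. Mineralization genes were mostly lower, 11 of 15 lower and 1 higher (median -1.53, against 0.014 over all genes). Dmp1, a matrix protein of mineralizing cells, was at 0 in the members of 3 pups and at 0.392 and 0.374 CPM in the other pups, against 30.6 to 111 CPM in Col10a1-high cells. Mmp13, the collagenase of hypertrophic cartilage, was 0.703 and 0.196 CPM in the WT pups and 3.56, 7.37 and 3.38 CPM in the mutant pups, against 9.74 to 334 CPM, and Ibsp, bone sialoprotein, 0.351 to 2.81 CPM against 81.4 to 116 CPM. None of these ranges overlapped, and no fold is given for these 3 genes because members of some pups held at most 2 of their UMIs. Alpl was already present in members, 67.5 and 111 CPM in the WT pups and 77.3, 74.4 and 79.5 CPM in the mutant pups, but 9.02 times as high in Col10a1-high cells (941 and 776 CPM (WT) and 648, 718 and 617 CPM (mutant); -3.22 ± 0.16 (SE), adjusted p = 4.32e-05). Spp1 was lower in members too (-3.05 ± 0.26 (SE), adjusted p = 0.00118). Aldh1a3, a retinaldehyde dehydrogenase, and Cds1, a phospholipid enzyme, completed the 5 largest falls (-5.37 ± 0.21 and -4.42 ± 0.16).

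The marker genes of the label did not move together across this border. Pth1r was lower in members than in Col10a1-high cells (-1.13 ± 0.05 (SE), adjusted p = 3.62e-12), Car12 was higher (0.35 ± 0.053 (SE), adjusted p = 3.01e-05) and Cited2 was not called (0.86 ± 0.28 (SE), adjusted p = 0.0765). Smpd3 was higher in members (0.49 ± 0.072 (SE), adjusted p = 0.000585) and Panx3 slightly lower (-0.28 ± 0.045 (SE), adjusted p = 7.76e-05). Of the transcription factors of hypertrophy, 8 were higher and 14 lower of 26. Mef2c was lower (-0.67 ± 0.051 (SE), adjusted p = 6.45e-09), Runx3 higher at 153 and 148 CPM in the WT pups and 176, 139.8 and 142 CPM in the mutant pups against 71.0 to 94.1 CPM without overlap (0.81 ± 0.064 (SE), adjusted p = 9.15e-09), and Runx2 not called (-0.12 ± 0.061 (SE), adjusted p = 0.132). Sox9 was higher in members of every pup (0.59 ± 0.055 (SE), adjusted p = 1.63e-06).

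Hedgehog targets were higher in the members than at this later stage. Ptch1 was 162 and 146 CPM in the WT pups and 145, 156 and 178 CPM in the mutant pups, against 47.3 and 35.9 CPM (WT) and 31.3, 64.3 and 46.4 CPM (mutant) in Col10a1-high cells, without overlap (1.81 ± 0.11 (SE), adjusted p = 4.12e-08). Gli1 was also higher (1.97 ± 0.22 (SE), adjusted p = 8.35e-07), while Disp1 was lower (-1.29 ± 0.095 (SE), adjusted p = 3.9e-09), and the list gave 6 higher and 3 lower of 15. The members' Gli1 levels lay between those of both classes without overlap. Prelp, a leucine-rich matrix protein, was with Ptch1 among the 5 largest rises (1.80 ± 0.16 (SE), adjusted p = 0.000848), and Ucma was higher too (1.51 ± 0.05 (SE), adjusted p = 5.83e-14). The remaining 3 of the 5 were Top2a, Ube2c and Cdk1, genes of dividing cells (2.52 ± 0.48, 2.35 ± 0.56 and 2.32 ± 0.32). In the whole lists 14 of 15 G2 and M genes and 11 of 14 S phase genes were higher in members and none was lower. Cdkn1c was lower (-0.78 ± 0.073 (SE), adjusted p = 7e-05) and Rb1 was lower (-1.60 ± 0.10 (SE), adjusted p = 5.94e-10). Secretory genes were higher in 12 of 20 and lower in none, and calcium genes higher in 2 and lower in 13 of 24.

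Against cycling chondrocytes, 12428 genes were tested and 31.3% were higher and 32.8% lower in the members, 5.99% at least 2-fold higher and 13.9% at least 2-fold lower. The G2 and M genes chose those cells, and a class chosen for dividing cells also carries S phase genes, so the fall of both is a description. The S phase genes were lower in 15 of 15 (median -2.50, against -0.0052 over all genes). The 5 largest rises were Sgms2 (3.91 ± 0.17), Smpd3 (3.67 ± 0.14), Chrdl1 (3.42 ± 0.097), Pth1r (3.41 ± 0.11) and Wnt4 (3.34 ± 0.15). The 5 largest falls were Esco2, Iqgap3, Kif20b, Aspm, all genes of dividing cells, and Hs6st2, a heparan sulfate sulfotransferase (-4.91, -4.40, -4.26, -4.20 and -4.19). Cited2 was higher here by 2.16 ± 0.095 (SE), adjusted p = 2.65e-08 and Ptch1 was not called (-0.11 ± 0.077 (SE), adjusted p = 0.221). Cycling cells had pup medians of 10864 to 17163 UMIs, less than the members.

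Among the members themselves, levels shifted with the Col10a1 a cell carried. Over 299 members with 0, 149 with 1 or 2 and 236 with at least 3 Col10a1 UMIs, Pth1r averaged 414, 549.5 and 865 CPM over pups, Mef2c 486, 608 and 827 CPM and Alpl 44.6, 72.6 and 131 CPM. Gli1 ran down over the same bins (28.1, 13.2 and 9.94 CPM), and so did Ptch1 (185, 159.9 and 124 CPM) and Ucma (1237, 901 and 523 CPM). Ucma fell through all 3 bins in 5 of 5 pups, but Gli1 and Ptch1 in 3 of 5, and Ptch1 in mutant pup 5 was 191, 138 and 187 CPM. Runx2 and Sp7 moved less (307, 339 and 390.3 CPM, and 163, 179 and 182 CPM). Binned by Ihh instead, 255 members with 3 or 4, 275 with 5 to 9 and 154 with at least 10 Ihh UMIs gave Pth1r levels of 446, 622 and 817 CPM and Col1a1, a fibroblast and bone collagen, levels of 2522, 1385 and 718 CPM. Pth1r rose through these bins in 5 of 5 pups and Col1a1 fell in 4 of 5, mutant pup 3 having 1643, 3216 and 1630 CPM. Cells with more UMIs reach a bin more easily (median 24207, 25395 and 29422 UMIs over the Ihh bins), so these values are a description.

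Clustered without Ihh, Col2a1 and Col10a1, the members formed 8 subsets, each with cells of every pup. Their leading genes formed them and are given as names of the subsets, with no test. Subset 1 (145 cells) led with the early response genes Dusp1 and Fos, subset 2 (126 cells) with Slc43a2, Cbln2 and Enpp2, subset 3 (125 cells) with Moxd1 and Arsi, and subset 4 (93 cells) with Fgg, Rrad and Rnd1. The label marker Cited2 was also among the leading genes of subset 1, at 656 CPM against 298 CPM over the other members, and higher in 5 pups. Subset 5 (60 cells) led with Eln, Col1a1 and Tnmd, genes of fibrous tissue and tendon, subset 6 (55 cells) with H2bc6 and Gap43, and subsets 7 and 8 (43 and 37 cells) with the mitotic genes Cenpa and Ccna2. Pth1r was highest in subset 2 (1137 CPM, with Col10a1 at 299.9 CPM) and lowest in subset 8 (304 CPM), and Col10a1 was lowest in subset 3 (56.7 CPM, with Pth1r at 373 CPM). Col1a1 was 15276 CPM in subset 5 and 586 CPM over the other members. Whether cells of subset 5 were 2 cells captured together was not tested, since the doublet caller marked no cell in any pup. Subset 4 held 10.9% and 7.43% of the members of the WT pups and 16.5%, 16.9% and 17.3% of those of the mutant pups, and subset 1 held 27.2% and 24.6% against 19.7%, 16.1% and 18.7%. In these 2 of the 8 subsets the groups did not overlap, and in the other 6 they did. Among genes tested in the members, 19.3% did not overlap between the groups, so this is a description of the shares. A pup's shares add up to all its members and are not independent.

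**Figure D4:**
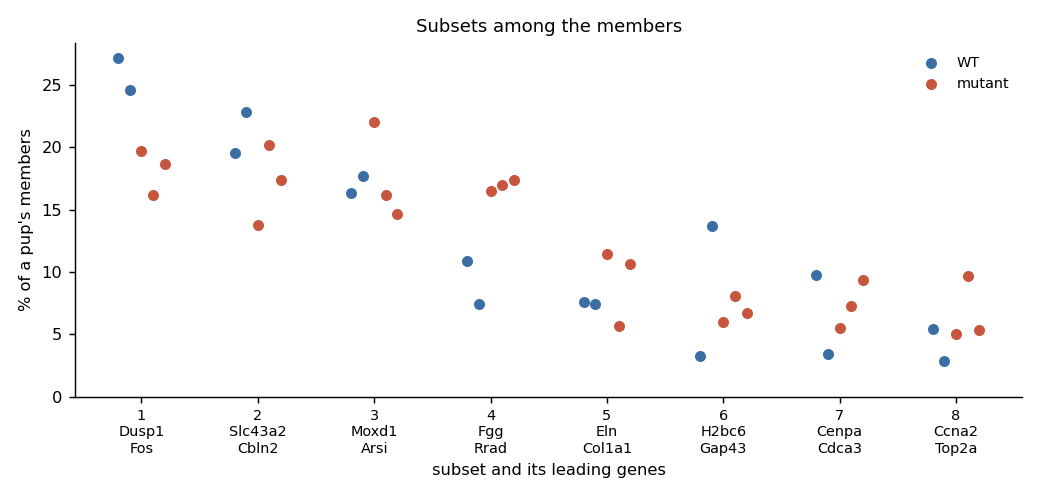
Percent of each pup's members in the 8 subsets, with the 2 leading genes of each. Points are the 2 WT (blue) and 3 mutant (red) pups. Subsets 1 and 4 separate the labels without overlap, as 19.3% of genes tested in the members did, and the other subsets overlap. The 2 go in opposite directions, but the shares of a pup are tied, since they add up to all its members.

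The comparison of mutant and WT pups asked whether these cells differed by label. Xist was found in most cells of mutant pups 3 and 4 only, and members of the WT pups were deeper. The Trpv4 allele therefore cannot be told apart from sex and depth here. Of 10440 genes tested in the members, 0 passed an adjusted p under 0.05 in edgeR (0.00% of genes), while 413 (3.96%) had an unadjusted p under 0.05 and DESeq2 called 1 higher and 3 lower. The CPM of the 2 WT and 3 mutant pups did not overlap in 2018 genes (19.3%), so a lack of overlap in a single gene below is a description of its values. Trpv4 was 282 and 175 CPM in the WT pups and 185, 279.9 and 278 CPM in the mutant pups, and the groups overlapped (0.13 ± 0.30 (SE), unadjusted p = 0.689, adjusted p = 1). The allele changes 1 residue, so its level does not show which allele was transcribed.

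The label markers and main regulators overlapped between groups. Pth1r was 562 and 834 CPM in the WT pups and 669, 505 and 464 CPM in the mutant pups (mutant over WT -0.34 ± 0.20 (SE), unadjusted p = 0.14, adjusted p = 1). Its highest value was in a WT pup and its lowest 2 in mutant pups, but WT pup 1 lay among the mutant pups. Car12 differed by -0.058 ± 0.27 and Cited2 by 0.058 ± 0.22, Ptch1 by 0.058 ± 0.13 and Gli1 by -0.045 ± 0.22, Runx2 by 0.005 ± 0.14 and Sox9 by 0.20 ± 0.15, all with adjusted p = 1 in edgeR. None of the genes of any list passed, and the median change was -0.037 in the hedgehog list, -0.017 in the factors of hypertrophy and -0.063 in the matrix list, against -0.0051 over all genes. The study named genes for proliferating chondrocytes, a class in which it counted prehypertrophic cells, and chose them on these samples. It reported them as lower in the mutant in at least some subsets of that class, compared with the Seurat package. Those subsets are not the members, and the sums per pup used here are another unit, so the values below are no like-for-like check. Of these genes of the study, Smad1 differed by -0.025 ± 0.14, Tgfb3 by -0.16 ± 0.25, Bmp7 by 0.14 ± 0.26 and Vegfa by 0.14 ± 0.17, none called. Nfatc2, which it named for perichondrial cells, differed by -0.11 ± 0.20 and was not called. The G2 and M list had a median of 1.00 with 0 of 16 called, and Top2a was 61.2 and 52.7 CPM in the WT pups and 66.8, 133 and 93.0 CPM in the mutant pups, where all 3 mutant pups were above both WT pups (unadjusted p = 0.0494, adjusted p = 1). The share of members with at least 10 UMIs of these genes overlapped between the groups, and both its highest and its lowest value (20.7% and 6.29%) were in WT pups. A limit of 10 UMIs is reached more easily in a deep cell, and this share, unlike CPM, is not scaled to depth. The highest share was in WT pup 1 and the lowest in WT pup 2. Their members had medians of 32376 and 29434 UMIs, against 22704 to 24524 UMIs in the mutant pups. The part of depth in these shares was not tested.

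**Figure D5:**
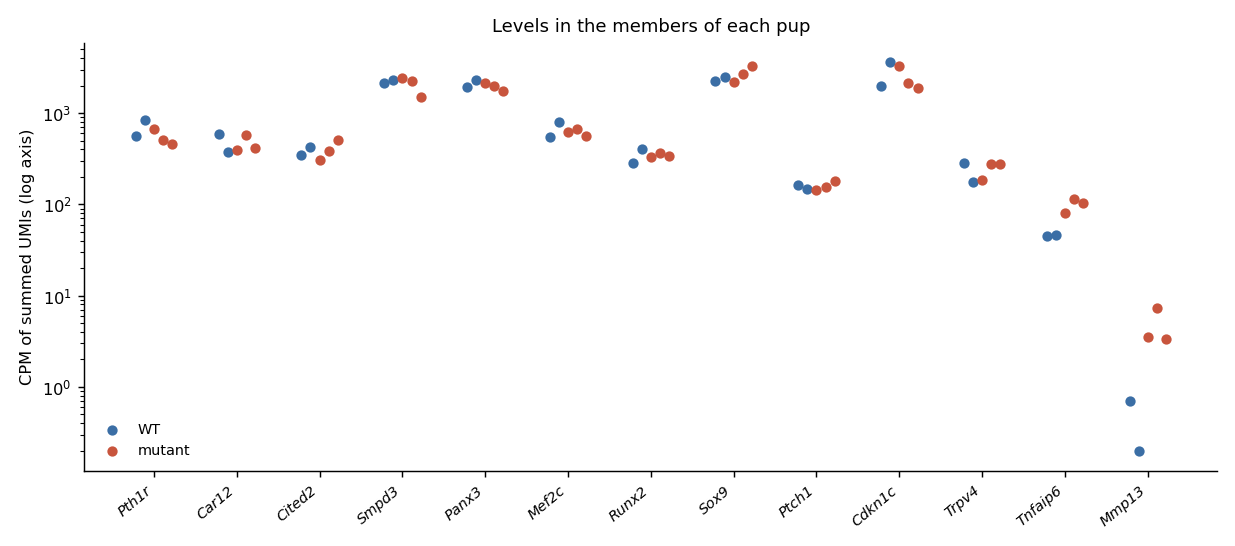
Levels of 13 genes in the members of each pup (CPM of summed UMIs, log axis). Points are the 2 WT (blue) and 3 mutant (red) pups. The 2 genes at the right, Tnfaip6 and Mmp13, separate the labels without overlap, as 19.3% of all genes tested did, and did not pass the adjusted p. The genes to their left all overlap.

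The gene nearest to a call was Tnfaip6, a hyaluronan-binding protein of inflammation and matrix, at 45.3 and 45.6 CPM in the WT pups and 80.3, 114 and 104 CPM in the mutant pups. The 3 mutant pups were all above the WT pups (1.13 ± 0.16 (SE), unadjusted p = 6.89e-06, adjusted p = 0.072). Rnd1, a small GTPase and a leading gene of subset 4, was 48.2 and 43.5 CPM in the WT pups and 72.4, 70.6 and 78.9 CPM in the mutant pups (0.70 ± 0.14 (SE), unadjusted p = 0.000199, adjusted p = 0.52). Mmp13 was very low, 0.703 and 0.196 CPM in the WT pups and 3.56, 7.37 and 3.38 CPM in the mutant pups, with both WT pups under all mutant pups (adjusted p = 0.585). The WT values rest on 2 and 1 UMIs, so no fold is given. Other genes of small p were Arf5 (0.55 ± 0.13), Tnnt3 (-1.03 ± 0.23), Arhgef4 (-2.69 ± 0.59) and the haemoglobin genes Hbb-bs, Hba-a1 and Hbb-bt (-4.57, -5.01 and -4.71). Haemoglobin genes are near-identical copies among which reads could be split, so their sum is the safer value. The 6 erythroid markers summed to 72.4 to 223 CPM in the members of the WT pups and 3.16 to 8.80 CPM in those of the mutant pups, and in Ihh-negative cells to 99.2 to 766 CPM and 58.1 to 398 CPM. The part of red cell RNA in the other differences was not tested.

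A test of the difference itself asked whether mutant and WT pups differed more, or otherwise, in members than in Ihh-negative chondrocytes. It called 11 of 14925 genes (0.0737%), 2 (0.0134%) with a more positive and 9 (0.0603%) with a more negative mutant change in members. Tnfaip6 differed by 1.10 between mutant and WT means in members and by -0.14 in Ihh-negative cells (mean log2 of CPM + 1), and the difference of the changes was 1.21 ± 0.15 (SE), adjusted p = 0.000679. Il17b, a cytokine gene, changed by -0.42 in members and 0.31 in Ihh-negative cells (-0.75 ± 0.12 (SE), adjusted p = 0.00151), and Wnt10b by -0.17 and 0.80 (-1.29 ± 0.25 (SE), adjusted p = 0.0287). For Il17b, Slc35g1, Fam89a, Wnt10b and Rhbdl2, genes higher in members than in Ihh-negative cells (for Il17b not against deep cells, 0.14 ± 0.13 (SE), adjusted p = 0.474), the mutant mean was above the WT mean in Ihh-negative cells and below it in members.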

How the data were processed

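Growth plate cartilage of 5 pups was measured by single-cell RNA sequencing on the BD Rhapsody platform, 1 library per pup. The authors deposited a matrix of raw UMI counts per gene and cell for each pup, made against mm10 per the submitters' processing notes, and the aligner is not given in the sources used here. Library totals ranged from 117746735 to 183322632 UMIs. Intervals cover counting error only.

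Cells were filtered, classed and summed as described above in Python 3.11.15 (pandas 2.3.3, scipy 1.17.1, numpy 2.4.6). Sums were fitted with edgeR 4.0.16 (R 4.3.3, filterByExpr, TMM, robust quasi-likelihood test), with the pup as a block in comparisons of classes, and SEs were derived from its F statistic. DESeq2 1.42.0 was an alternative. Subsets came from analytic Pearson residuals of 1500 variable genes, 15 components, 15 neighbours and Leiden clustering at resolution 0.8 (scanpy 1.11.5, leidenalg 0.10.2). Scrublet marked 0 cells, so no doublets were removed.

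The members and gene lists were chosen with earlier results of these data known. Named genes were the markers, list genes and, per comparison of classes, the 5 largest changes in each direction among called genes of at least 50 CPM, and for mutant against WT the 10 of smallest p, of which 1 is not reported here. Subset leading genes, Il17b and the other genes of the difference test were named by their own calls. The limits at 20000 and 40000 UMIs were chosen after seeing the data. The edgeR steps were tested on simulated data, where most of the changed genes were recovered in every comparison and the share of false calls was above the level set by the threshold in all but members against Ihh-negative cells. The pups were littermates whose tissue was isolated separately per the study's methods, and p-values measure the spread between these 5 libraries.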

Additional observations from a re-analysis of the deposited data

Results flagged for a closer look

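The difference between mutant and WT pups was itself different in members and in Ihh-negative chondrocytes for 11 genes (edgeR, adjusted p under 0.05 for the difference of the changes). The values below are that difference on the log2 scale, members minus Ihh-negative cells. It was 1.21 for Tnfaip6 and 0.84 for Sox11, the 2 genes whose mutant change was the more positive in members. It was -0.75 for Il17b, -0.96 for Slc35g1, -0.66 for Fam89a, -0.82 for Rhbdl2 and -1.29 for Wnt10b. It was -1.81 for Acta2, smooth muscle actin, and -3.17 for Arhgef4. The haemoglobin genes Hba-a2 and Hbb-bt gave -3.16 and -4.23, and erythroid RNA differed between pups in both classes. The part of haemoglobin RNA in the other values was not tested. The Ihh-negative class took a smaller part of the Col2a1-rich cells in the mutant pups, and its part in these values was not tested. The 11 differences kept their sign whichever pup was left out, but 5 of them were called again without mutant pup 3, 5 without mutant pup 5 and 7 without mutant pup 4, against 10 without either WT pup. On simulated data this test made a larger share of false calls than its threshold allows, with 190 of 200 changed genes recovered and 25 false calls. The number of false calls grows with the number of calls, so those 25 cannot be set against the 11 calls made here.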

How the results depend on the processing

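Calls between mutant and WT members depended on the settings. Without the filter on low counts edgeR called 13 higher and 13 lower, DESeq2 called 1 higher and 3 lower, members with at least 5 Ihh UMIs gave 1 higher, and members thinned to 10000 UMIs gave 2 lower. Leaving out 1 pup at a time gave 0 to 9 higher and 0 to 7 lower, with 0 in both directions without mutant pup 4. The difference of the mutant effect between classes had 22 higher and 35 lower without the filter, and 1 to 34 higher and 5 to 38 lower when pups were left out, the largest counts without either WT pup. Leaving out 1 WT pup leaves that group with 1 library, which is assumed to vary like the others.

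Against Ihh-negative cells of any depth 1325 genes were at least 2-fold higher and 2235 lower, and against those of at least 20000 UMIs 1807 were called higher and 1717 lower, 233 and 305 of them at least 2-fold. In that fit Cited2 stood at -0.013, Gnas at 0.028, Scube3 at 0.11, Mgp at 0.038, Erg at 0.23, Gdf5 at 0.018 and Prelp at -0.027, on the other side of 0. Of 296 listed or named genes called against all Ihh-negative cells and tested there, 27 changed sign and 6 of them were called in the new direction, namely Chad (-0.49, then 0.47), Mef2a (-0.27, then 0.28), Enpp1 (-0.37, then 0.22), Id1 (0.20, then -0.36), Aldoa (0.26, then -0.19) and Chst11 (0.32, then -0.19). Without a depth minimum Ptch1 stood at 0.28. Against Col10a1-high cells 169 genes were at least 2-fold higher with at least 5 Ihh UMIs, 152 with at least 2 Ihh UMIs per 10000 in place of 3 UMIs, and 503 without the filter, and DESeq2 called 1203 higher.

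The mutant minus WT share of members became 0.0282 percentage points with the Ihh limit per 10000 UMIs, 0.00731 with members of at most 40000 UMIs, -0.0873 with at least 5 Ihh UMIs and -0.167 with no upper limit on genes per cell, against -0.0407 as reported (exact permutation p from 0.5 to 1 over these), and ran from -0.265 to 0.183 without 1 pup. After thinning it was -0.0142 at 3000 UMIs and 0.285 at 8000 UMIs (means 0.563% in WT and 0.848% in mutant pups, exact permutation p = 0.5), against 0.0160 at 5000 UMIs, where it ran from -0.0603 to 0.0924 without 1 pup. The limit of 8000 UMIs left out 5860 and 7444 cells in the WT pups and 12501, 12755 and 8371 in the mutant pups. Before thinning, members were 0.993% and 1.92% of the remaining cells in the WT pups and 3.27%, 2.42% and 1.38% in the mutant pups. The causes were not tested.

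With no replicate block, edgeR called 3422 higher and 3385 lower against Ihh-negative cells, 3605 and 3796 against cycling cells and 1555 and 1777 against Col10a1-high cells. No paired analysis was possible because mutant and WT pups share no number in the labels. Scrublet gave no alternative, since it marked 0 cells. With 2 and 3 pups an exact permutation p cannot go below 0.1, and genes of few UMIs in 75 to 218 members per pup are limited by depth.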
